A study of Mus musculus with 12 samples.

Results

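The interferon-stimulated genes are genes that cells switch on when they receive an interferon signal, and they were followed here in the stomach of mice that lack carbonic anhydrase IX. The members were 32 names given as a list, and every array probe whose platform gene symbol was one of them was taken. They matched 46 of the 46643 probes and 30 of the 19406 gene symbols on the array, since Rigi and Ddx58 are names of the same gene and Ifi44 was not analysed here. Stomach RNA of 12 C57BL/6 mice was hybridised, 6 of them Car9-/- and 6 wild type, with 3 males and 3 females in each genotype and a separate Illumina Mouse-6 array for each mouse. The Car9-/- mice carried a targeted disruption of Car9 in the whole animal and were 10 to 12 months old, while the wild-type mice were 8 to 12 months old. By the study's methods the specimens came from the body of the stomach, and the colony was specific pathogen-free.

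Interferons of type I bind the receptor pair Ifnar1 and Ifnar2, which activates the kinases Jak1 and Tyk2. These phosphorylate Stat2, which joins Irf9 in a complex that binds a DNA motif called the interferon-stimulated response element (ISRE). Interferon gamma uses another receptor, Ifngr1 with Ifngr2, and leads to binding at the gamma-activated sequence (GAS). The genes switched on in this way sense viral RNA, block viral entry and translation, or damp the signal again, and epithelia of the digestive tract express them also at rest.

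The promoters of 6 genes are shown because they carry the ISRE core (GAAA, any 2 bases, then GAAA, on either strand), and because their genes include those with the widest spread between mice. Each stretch runs 5′ to 3′ on the strand of its gene and ends before the start of the transcript, with the ISRE core in capitals. On the opposite strand the core reads TTTC, any 2 bases, then TTTC. The sequences are from RefSeq on GRCm38.p6.
Isg15, chr4:156200849-156200928, minus strand: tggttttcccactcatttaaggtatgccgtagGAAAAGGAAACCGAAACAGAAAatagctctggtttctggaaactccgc
Oas1g, chr5:120887614-120887673, minus strand: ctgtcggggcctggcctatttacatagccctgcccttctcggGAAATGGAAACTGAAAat
Oas1a, chr5:120907526-120907585, minus strand: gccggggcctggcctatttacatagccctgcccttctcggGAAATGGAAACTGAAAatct
Bst2, chr8:71537568-71537627, minus strand: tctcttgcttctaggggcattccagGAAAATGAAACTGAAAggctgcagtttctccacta
Ifit3, chr19:34583359-34583438, plus strand: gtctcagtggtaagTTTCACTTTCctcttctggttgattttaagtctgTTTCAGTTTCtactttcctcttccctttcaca
Gbp3, chr3:142559974-142560033, plus strand: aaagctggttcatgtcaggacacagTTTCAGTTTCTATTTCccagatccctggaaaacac
The Isg15 stretch holds 3 overlapping copies of the core, and the Oas1g and Oas1a stretches hold the same 2 copies within 20 bases of the start.

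The 250 bases before the start were searched for 24 member genes that had a window in the RefSeq table. The ISRE core was found in 12 of the 24, against 3.46% of the 27025 genes in the table. The GAS motif TTCNNNGAA was found in 4 of the 24, Oas1a, Ifit2, Bst2 and Isg20, against 8.13% of all genes, and in Bst2 it overlaps an ISRE core. A match is a description of the letters and no measured binding site. The list holds genes known for their interferon response, so a high share of the core is part of what the list is.

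At both Car9 probes the highest Car9-/- value lay below the lowest wild-type value. At probe 2340128 the log2 signal was 7.74 at the lowest, 7.99 at the median and 8.14 at the highest in Car9-/- mice, against 9.43, 9.65 and 9.79 in wild-type mice, a difference of -1.67 on the log2 scale with a standard error (SE) of 0.08 (limma adjusted p = 3.83e-07). Whether the probes lie in the disrupted part of Car9 was not tested. Median signals were 83.3 to 101.4 on Car9-/- arrays and 75.6 to 89.6 on wild-type arrays, and 18467 to 20276 probes were detected on Car9-/- arrays and 18141 to 19390 on wild-type arrays. The stomach markers Pgc, Cblif and Atp4a had log2 signals of 13.87 or more on all 12 arrays. Some arrays stood apart. Car9-/- mouse 5 had the lowest mean correlation with the other arrays of its genotype, 0.9613, against 0.9714 to 0.9784 for the other 5 Car9-/- mice. Wild-type mice 4 and 6 had the highest level of 17 exocrine pancreas genes, such as the trypsinogens Prss1 and Try4, with 3.27 and 2.87 log2 units above the mean of the 12 mice. Krt14, a keratin of the basal layer of squamous epithelium, had log2 signals between 6.21 and 13.48 in Car9-/- mice and between 6.02 and 13.66 in wild-type mice.

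Of the 46 member probes, 22 were detected on all 12 arrays and 12 on none, with a detection p-value under 0.01 against the negative controls counted as detected. Another 8 were detected on 3 to 11 arrays and 4 on 1 or 2. The 30 probes detected on at least 3 arrays were tested, and they represent 23 of the 30 genes. Of all probes on the array, 44.5% were detected on at least 3 arrays. The other 7 genes were Oas1a, Oas3, Ifit1, Mx2, Ifih1, Rtp4 and Zbp1, and none of their probes reached 3 arrays. Among them, Oas3 was detected in Car9-/- mouse 1, Mx2 on 2 Car9-/- arrays and Zbp1 on 1, and none of the 3 on a wild-type array. Of the tested probes, the 2 of Mx1 were detected only on Car9-/- arrays, so that they reached the test through that genotype alone.

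**Figure D1:**
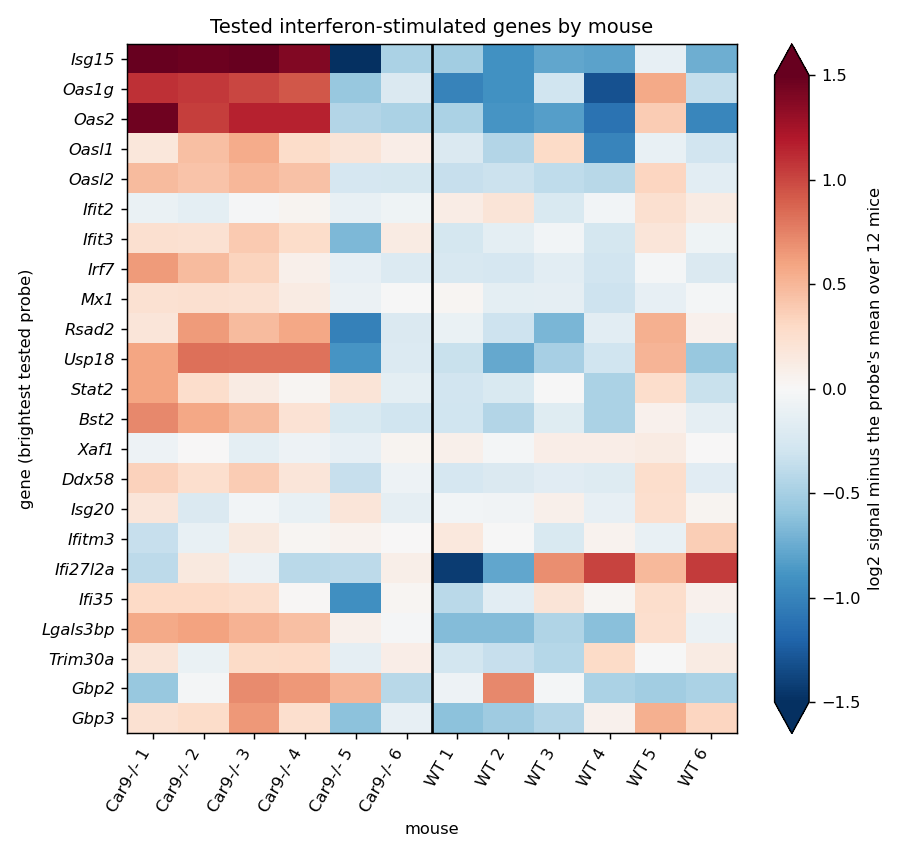
Log2 signal of the 23 tested interferon-stimulated genes (rows, brightest tested probe) in each mouse (columns, Car9-/- on the left and wild type, WT, on the right), shown as the difference from the probe's mean over the 12 mice; colours saturate at 1.5 log2 units. Most rows are red in Car9-/- mice 1 to 4, blue in Car9-/- mouse 5 and red again in wild-type mouse 5.

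The interferon-stimulated genes were higher in Car9-/- stomach at 4 of the 30 tested probes, and none was lower. The 4 probes were those of Lgals3bp, Oas2, Oasl1 and Mx1, the last of which reached the test only through Car9-/- arrays, each at an adjusted p under 0.05 from limma with Benjamini-Hochberg adjustment over all 20751 tested probes. This is 13.3% of the member probes, beside 5.34% of all tested probes called higher and 5.25% called lower. At an unadjusted p under 0.05, 14 member probes were higher and 1 was lower, beside 13.2% and 14.2% of all tested probes. The log2 fold change was above 0 at 23 of 30 member probes (49.9% of all tested probes) and at least 1 at 5 of them (0.41% of all tested probes). Without the 2 Mx1 probes, 3 of 28 were called higher (10.7%), 12 were higher at an unadjusted p under 0.05 and 21 had a log2 fold change above 0. The median over the 23 genes was 0.25 on the log2 scale, beside -0.00068 over all tested probes, and 0.27 without Mx1. Signals were not background-subtracted here. With neqc, which subtracts background, the median was 0.49 and 3 member probes were called, beside 1018 of all 20751 tested probes called higher. Scaling each array to its median gave 10 calls and a median of 0.43, but it also moved all tested probes by 0.1135 on the log2 scale, with 3585 of them higher and 426 lower and 17.3% called higher, beside 1108 and 1089 after quantile normalization. With array weights, which give arrays that stand apart less weight, 12 member probes were called, beside 9.24% of all tested probes. Other settings gave fewer calls, among the members and among all probes. There were 2 with all probes tested, beside 880 of 46643 probes called higher. There was 1 with the replicate number as a block, beside 251 of 20751. None was called by limma with the exocrine pancreas or the adipose level as a covariate or without wild-type mice 4 and 6. Over all 20751 tested probes 34, 151 and 457 were called higher in these fits, in this order. The members were chosen with results of these arrays known, so these counts describe the list and do not test it.

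**Figure D2:**
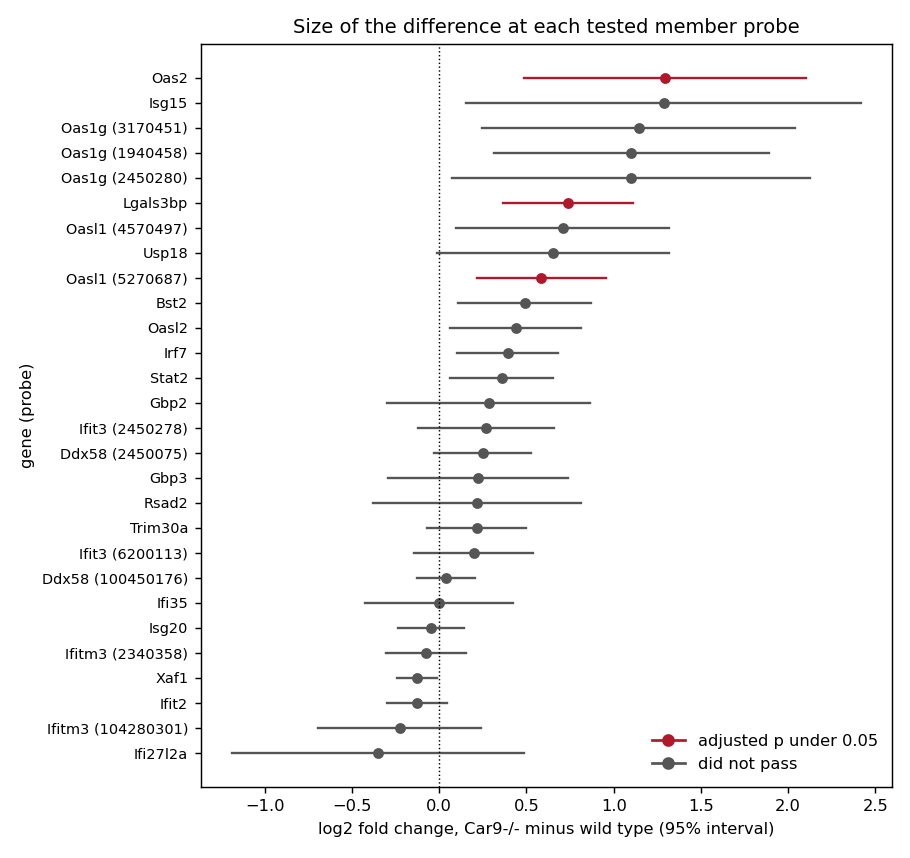
Log2 fold change of Car9-/- minus wild type (horizontal axis) with its 95% interval from limma at 28 tested member probes (vertical axis), n = 6 mice per genotype; the 2 Mx1 probes are left out because they were not detected in wild-type mice, and red probes passed an adjusted p of 0.05. Oas2, Isg15 and the 3 Oas1g probes lie at 1.10 to 1.29 with wide intervals, and 7 probes lie below 0.

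The 2′-5′-oligoadenylate synthetases held 4 of the 5 probes with a log2 fold change of at least 1. These enzymes are activated by double-stranded RNA and make a short nucleotide messenger that switches on RNase L. Oas2 had log2 signals of 6.94, 8.51 and 8.88 (lowest, median and highest) in Car9-/- mice, against 6.31, 6.57 and 7.80 in wild-type mice. Car9-/- mice 1 to 4 lay above all wild-type mice and mice 5 and 6 within their range, and the probe was detected in every Car9-/- mouse and in 2 wild-type mice. The log2 fold change was 1.29 (SE 0.37, limma adjusted p = 0.0442). As 4 of the 6 wild-type arrays were not above background, its size is uncertain, and with neqc it was 2.04.

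Oas1g was read by 3 tested probes that gave nearly the same result. At the brightest, 1940458, the log2 signal was 9.40, 10.94 and 11.07 in Car9-/- mice, against 8.66, 9.34 and 10.54 in wild-type mice. The same 4 Car9-/- mice lay above every wild-type mouse, and wild-type mouse 5 lay above Car9-/- mice 5 and 6. The log2 fold changes were 1.10, 1.10 and 1.14 with SEs of 0.36, 0.47 and 0.41, and none passed (adjusted p = 0.0724, 0.154 and 0.096 from limma). The neighbouring gene Oas1a is a close relative, and whether the Oas1g probes also bind its transcript was not tested. The probe of Oas1a itself was detected on no array.

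Oasl1 and Oasl2, which lie next to each other on chromosome 5, encode relatives of the synthetases. In the mouse, OASL1 is known to restrain the translation of Irf7. The brighter Oasl1 probe, 5270687, had log2 signals of 10.03, 10.17 and 10.49 in Car9-/- mice, against 8.94, 9.68 and 10.22 in wild-type mice, and only wild-type mouse 3 overlapped the Car9-/- range. The log2 fold change was 0.58 (SE 0.17, limma adjusted p = 0.0462). The other Oasl1 probe, 4570497, had a larger difference of 0.71 that did not pass (SE 0.28, limma adjusted p = 0.125), with Car9-/- mouse 5 at 6.86 below all wild-type mice. Oasl2 had a log2 fold change of 0.44 (SE 0.17, limma adjusted p = 0.123) and was detected on 5 Car9-/- arrays and 2 wild-type arrays. With most of its wild-type values at background its size is uncertain too, and with neqc it was 0.85.

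The calls of Oas2 and Oasl1 were near the threshold. Each was kept in only 3 of the 12 fits without 1 mouse, those that left out Car9-/- mouse 5, Car9-/- mouse 6 or, for Oas2, wild-type mouse 5 and, for Oasl1, wild-type mouse 3. Over the 12 fits the log2 fold changes stayed between 1.13 and 1.52 for Oas2 and between 0.44 and 0.70 for Oasl1.

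Isg15 encodes a small protein related to ubiquitin that is joined to other proteins after interferon. Usp18 encodes the protease that removes it again and also blocks the interferon receptor. Isg15 had the widest spread of the tested members. Its log2 signal was 7.12, 10.27 and 10.51 in Car9-/- mice, against 7.93, 8.08 and 8.72 in wild-type mice. Car9-/- mice 1 to 4 were at 10.51, 10.31, 10.37 and 10.23, mouse 6 was at 8.36 within the wild-type range, and mouse 5 was below every wild-type mouse. The mean difference was 2.44-fold (log2 fold change 1.29, 95% interval 0.15 to 2.42) and did not pass (limma adjusted p = 0.133). Without Car9-/- mouse 5 it was 1.76 with an adjusted p of 0.00743 from limma. Usp18 had the same shape, with log2 signals of 7.11, 8.70 and 8.83 in Car9-/- mice, against 7.23, 7.58 and 8.50 in wild-type mice, and a log2 fold change of 0.65 (SE 0.31, limma adjusted p = 0.189).

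**Figure D3:**
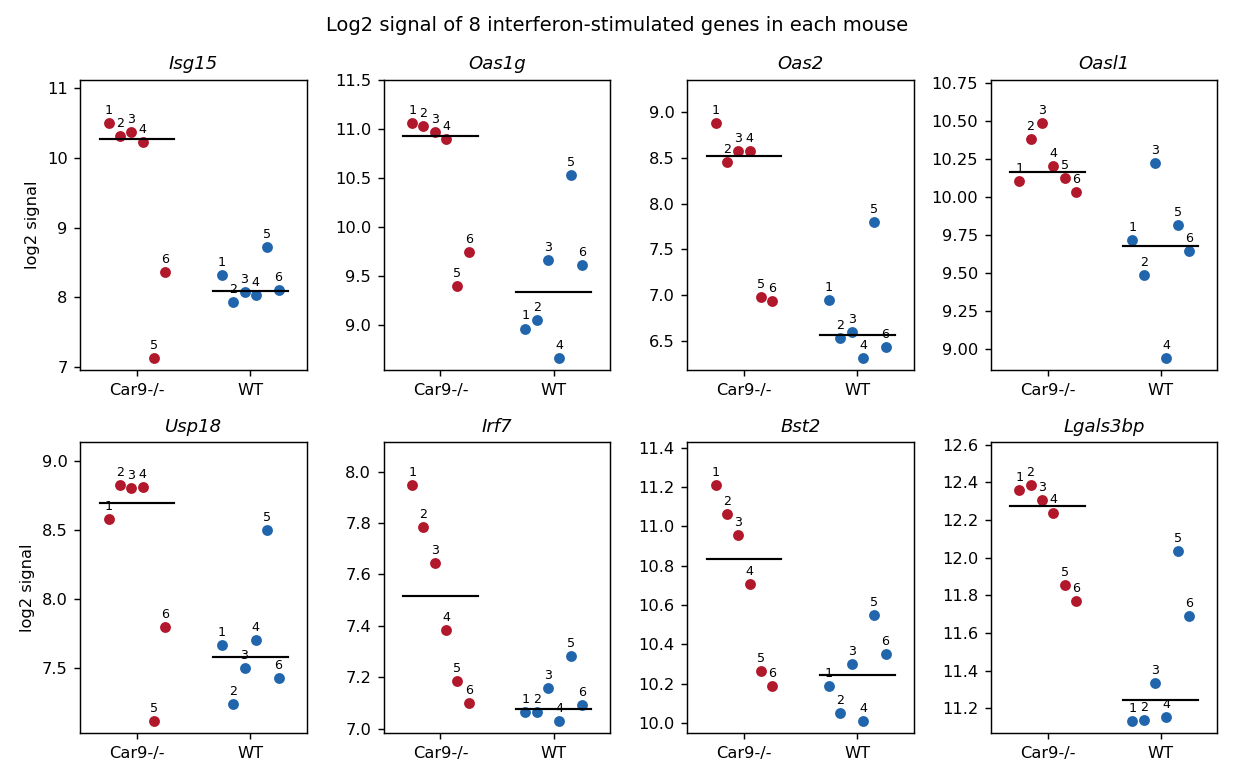
Log2 signal (vertical axes, with a scale of its own in each panel) of 8 interferon-stimulated genes in the 6 Car9-/- mice (red, left) and the 6 wild-type mice (WT, blue, right); numbers are the mouse numbers and black lines the group medians. Isg15, Oas1g, Oas2 and Usp18 are high in Car9-/- mice 1 to 4 and low in mice 5 and 6, and wild-type mouse 5 is the highest of its group in each panel except Oasl1.

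Regulators of the pathway among the members were Irf7 and Stat2. Irf7, the transcription factor that amplifies type I interferon production, had log2 signals of 7.10, 7.51 and 7.95 in Car9-/- mice, against 7.03, 7.08 and 7.28 in wild-type mice. Its 4 highest values were those of Car9-/- mice 1 to 4, with a log2 fold change of 0.39 (SE 0.13, limma adjusted p = 0.0786). Stat2 had a log2 fold change of 0.36 (SE 0.14, limma adjusted p = 0.114), and wild-type mouse 5 at 7.71 was as high as Car9-/- mouse 2. Neither gene passed.

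Proteins that act on virus particles and membranes gave mixed values. Lgals3bp, a secreted glycoprotein that binds galectins, was the brightest member and one of the called ones, with log2 signals of 11.77, 12.27 and 12.38 in Car9-/- mice, against 11.13, 11.24 and 12.04 in wild-type mice. All Car9-/- mice lay above 5 of the 6 wild-type mice, and only wild-type mouse 5 reached into their range. The difference was 1.67-fold (log2 fold change 0.74, 95% interval 0.37 to 1.11, limma adjusted p = 0.0191). It passed in each of the 12 fits without 1 mouse, and it did not pass with the pancreas level (adjusted p = 0.142) or the adipose level as a covariate (0.0784), with the replicate block (0.098), or without wild-type mice 4 and 6 (0.0548, all from limma), with log2 fold changes of 0.72 to 0.79.

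Bst2, or tetherin, holds budding virus at the cell surface. Its log2 signal was 10.19, 10.83 and 11.21 in Car9-/- mice, against 10.01, 10.24 and 10.55 in wild-type mice, with Car9-/- mice 5 and 6 inside the wild-type range. The log2 fold change of 0.49 did not pass (SE 0.17, limma adjusted p = 0.0925). Rsad2, which encodes viperin, an enzyme that makes a chain-terminating nucleotide, differed by 0.22 (SE 0.28, limma adjusted p = 0.646), and its highest wild-type value, 9.33 in mouse 5, was above 4 of the 6 Car9-/- values.

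Mx1 encodes a GTPase that blocks influenza and related viruses, and many laboratory strains carry a defective copy. Probe 6840364 had mean log2 signals of 6.61 ± 0.18 in Car9-/- mice and 6.20 ± 0.075 in wild-type mice (SD, n = 6 each), with an adjusted p of 0.0112 from limma. It was detected on 3 Car9-/- arrays and was not well above background on any wild-type array, so no fold is given. The filter favours a difference at a probe that reaches the test through 1 genotype alone, so this call is given as a description. At none of the other 29 tested member probes did every Car9-/- value lie above every wild-type value, beside 2.27% of all tested probes. The other tested Mx1 probe, 2690301, did not pass (limma adjusted p = 0.0685).

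Ifit2 and Ifit3 lie side by side on chromosome 19 and encode proteins that bind foreign RNA or its partners. Ifit3 had a log2 fold change of 0.20 at its brightest probe (SE 0.16, limma adjusted p = 0.441) and Ifit2 one of -0.13 (SE 0.08, limma adjusted p = 0.313). In Ifit3, Car9-/- mouse 5 at 6.32 stood below the other 5 Car9-/- mice at 7.11 to 7.38. Ifit2 had no such gap, with all 6 Car9-/- mice between 7.48 and 7.66. Ddx58, which encodes the viral RNA sensor RIG-I, differed by 0.25 at its brightest probe (SE 0.13, limma adjusted p = 0.233).

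The guanylate-binding proteins and Trim30a did not pass. Gbp2 and Gbp3, GTPases that attack the vacuoles of intracellular pathogens, had log2 fold changes of 0.28 and 0.22 (SEs 0.27 and 0.24, adjusted p = 0.522 and 0.582 from limma), and Trim30a, a member of the tripartite motif family, one of 0.21 (SE 0.13, limma adjusted p = 0.307). The 4 highest Gbp2 signals, 7.43 in wild-type mouse 2 and 7.41, 7.36 and 7.22 in Car9-/- mice 3, 4 and 5, were those of the 4 mice with the highest level of squamous genes. With the squamous level as a covariate the log2 fold change of Gbp2 was 0.063. This match was noticed in the values, and a link between Gbp2 and the squamous level was not tested.

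At 6 genes, Ifit2 among them, the log2 fold change was below 0. Ifitm3, which blocks virus entry at endosomes, had log2 fold changes of -0.07 and -0.23 at its 2 probes, and Isg20, an RNA exonuclease, one of -0.05. None of these values passed. Ifi35, a cytoplasmic partner of Nmi, differed by less than 0.01, with Car9-/- mouse 5 at 7.54 and all other mice at 8.06 or more. Xaf1, a proapoptotic partner of XIAP, had the only unadjusted p under 0.05 on the lower side, with a log2 fold change of -0.13 (SE 0.05, limma adjusted p = 0.147). Ifi27l2a, a small mitochondrial protein, had the lowest log2 fold change, -0.35 (SE 0.39, limma adjusted p = 0.592). Its 4 highest signals, 10.51, 10.48, 10.15 and 9.94, were those of wild-type mice 6, 4, 3 and 5. These mice also had the 4 highest levels of adipose genes. Without wild-type mice 4 and 6 the log2 fold change of Ifi27l2a was 0.08. The match with the adipose level was noticed in the values, and a link was not tested.

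The tested members were also split by their promoters, with Mx1 left out. The 9 genes with an ISRE core, among them Isg15, Oas1g and Bst2 shown above, all had a log2 fold change above 0, with a median of 0.28 and a range of 0.20 to 1.29. Of the 10 genes with a window and no core, 5 were above 0, with a median of 0.12 and a range of -0.13 to 0.74, and this group holds the called genes Oasl1 and Lgals3bp. The 3 genes without a window, Oas2, Usp18 and Ifi27l2a, had the highest median, 0.65, with a range of -0.35 to 1.29 and 2 above 0. The split was made after the values were seen and was not tested.

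Mice of the same genotype differed in their levels. Car9-/- mice 1 to 4 held the 4 highest of the 12 values at 14 of the 30 tested member probes, beside 2.57% of all tested probes. Car9-/- mouse 5 was the lowest of its genotype at 15 member probes (22.6% of all tested probes) and lower than every wild-type mouse at 13 (22.3%). Car9-/- mouse 6 was the lowest at 8, a count with no share over all tested probes to set beside it. Wild-type mouse 5 was the highest of its genotype at 21 (14.7%). A member level was averaged over the 18 member genes detected on all arrays, in log2 units from the mean of the 12 mice. It was 0.37, 0.38, 0.40, 0.28, -0.36 and -0.10 in Car9-/- mice 1 to 6, against -0.35, -0.38, -0.18, -0.23, 0.22 and -0.04 in wild-type mice 1 to 6. The genotypes overlapped, since wild-type mouse 5 lay above Car9-/- mice 5 and 6. This pattern of mice was noticed in the values, and no test was made of it.

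Leaving out single mice changed the count of calls in both directions. Without Car9-/- mouse 5, 17 of the 30 member probes were called higher, which is 56.7%, beside 8.53% of all tested probes. The calls then included Isg15, Usp18, Irf7, Bst2, Ddx58, Oasl2 and all 3 Oas1g probes. Without Car9-/- mouse 6, 7 were called, beside 5.52% of all tested probes. Without wild-type mouse 5, 4 were called, beside 3.83%. In the other 9 fits without 1 mouse, 2 or 3 were called, with Lgals3bp among them each time. Without wild-type mice 4 and 6 together, none of the 30 was called by limma, beside 2.2% of all tested probes, 9 had an unadjusted p under 0.05, and the log2 fold changes of Lgals3bp and Oas2 were 0.74 and 1.10.

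The labels also give sex and age. The genotypes had the same sex ratio and the same mean age, so both as covariates could not change the log2 fold changes. With them Oas2 did not pass (limma adjusted p = 0.0526). In each genotype mice 1, 2 and 4 were males and mice 3, 5 and 6 females. The 2 Car9-/- mice with the lowest member level were thus both female. Among wild-type mice the females had the higher member levels, -0.18, 0.22 and -0.04, against -0.35, -0.38 and -0.23 in the males. Between females and males, with genotype in the fit, none of the 30 member probes was called by limma, none had an unadjusted p under 0.05, and the lowest was 0.116, beside 0.0241% of all tested probes called and 4.54% with an unadjusted p under 0.05. The signed log2 fold change was higher in males than in females at 27 of the 30 probes, beside 48.8% of all tested probes, and its absolute size was larger in males at 24, beside 63.4%. For Oas1g probe 1940458 the log2 fold change was 2.10 in males and 0.10 in females (n = 3 per genotype and sex), and for Isg15 it was 2.25 and 0.32. The difference between the sexes did not pass for any member probe (lowest adjusted p = 0.226 from the interaction term in limma, beside 0.0145% of all tested probes called). At an unadjusted p under 0.05 it was found at 10 member probes, beside 9.25% of all tested probes.

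Many of the members detected on all arrays varied together between mice of the same genotype, and others did not. Correlations were taken over the 12 mice after each genotype's mean was removed, between the 18 member genes detected on all arrays. They are descriptions, since all genes share the same 12 arrays. The median Pearson r over the 153 pairs was 0.304, beside 0.0275 for pairs among all 15551 probes detected on all arrays, and 21 pairs had an r above 0.8. Irf7 and Bst2 were the closest pair (r = 0.958), followed by Usp18 with Ddx58 (r = 0.932) and Rsad2 with Usp18 (r = 0.922).

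Ddx58 had the highest median r to the other members, 0.79. Oas1g, Usp18, Bst2, Gbp3, Isg15, Lgals3bp and Ifi35 followed with 0.742 to 0.619, and Irf7 and Rsad2 had 0.577. Ifi35, Rsad2 and Gbp3 thus varied with the group although their genotype differences did not pass. Ifit2, Ifi27l2a, Xaf1 and Isg20 had medians of 0.176 to 0.025, and Ifitm3 had -0.248. Oasl1, one of the called genes, had only 0.247. The median over all pairs was 0.235 without wild-type mouse 5, 0.317 without Car9-/- mouse 5 and 0.382 without wild-type mice 4 and 6.

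**Figure D4:**
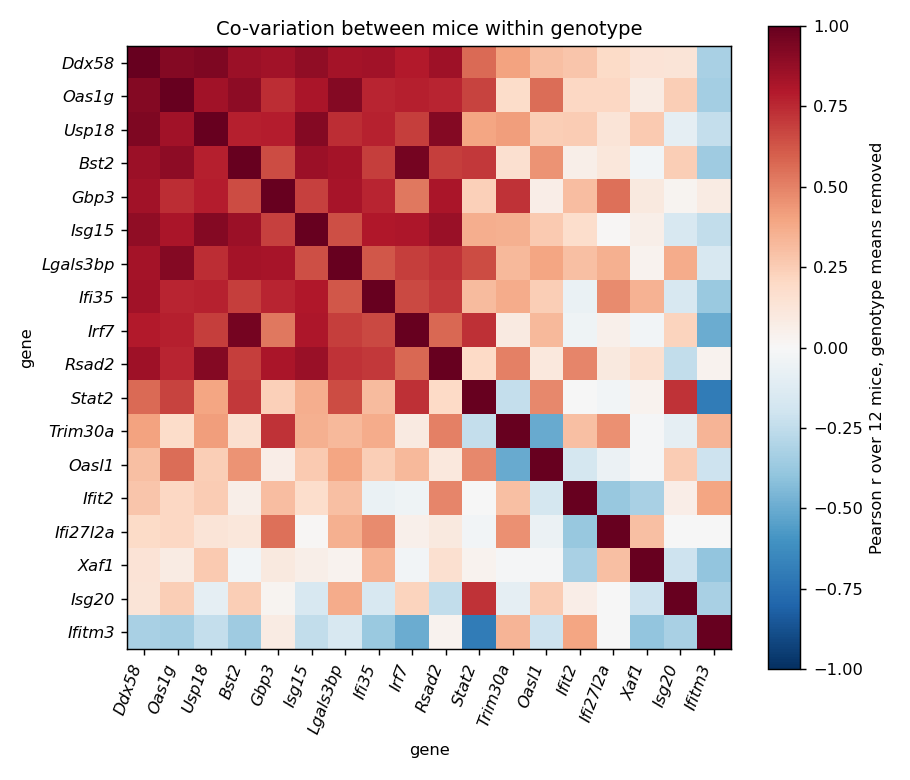
Pearson correlation (colour) between the 18 interferon-stimulated genes detected on all arrays, over 12 mice with each genotype's mean removed; genes run on both axes by their median correlation with the others. The first 10 genes, Ddx58 to Rsad2, form a red block, and Ifitm3 in the last row is mostly blue.

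The named genes outside all lists with the pattern most like the mean of the members, over the same 12 mice, were Cdc20, an activator of the anaphase-promoting complex (r = 0.924), Trim12c (0.902), Atp2b4, a calcium pump (0.884), Ugt1a6a, a glucuronosyltransferase (0.882), and Uhrf2 (0.88). In each of the 5, Car9-/- mouse 5 was the lowest of all 12 mice, and none passed the genotype test, with log2 fold changes of 0.47, 0.13, -0.04, 0.55 and 0.25 in this order.

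Other genes of the pathway were taken from lists of ligands, receptors, signal transducers, sensors, feedback regulators, further interferon-stimulated genes and interferon gamma targets. Of 136 listed genes, 87 were tested, 9 were higher and none was lower by limma, which is 10.3% higher, beside 5.34% of all tested probes. At an unadjusted p under 0.05, 27 were higher and 2 lower (31.0% and 2.3%), beside 13.2% and 14.2% of all tested probes. Their median log2 fold change was 0.14. Of the ligands, 4 of 19 were tested, Ifna1, Ifna6, Ifne and Ifnz, and none passed. Another 14 ligands were detected on no array, among them Ifnb1, Ifng and Ifnl3.

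Among the receptors, only Ifngr2, the signalling chain for interferon gamma, was higher, with log2 signals of 11.70, 11.95 and 12.05 in Car9-/- mice, against 10.94, 11.45 and 11.73 in wild-type mice (log2 fold change 0.54, SE 0.13, limma adjusted p = 0.0212). A dimmer Ifngr2 probe did not pass (0.31, limma adjusted p = 0.139). Its partner Ifngr1 differed by 0.26 (adjusted p = 0.156) and Ifnar2 by 0.10 (adjusted p = 0.364, each from limma). Ifnar1 was detected on 1 array and not tested. Of the 8 tested kinases and transcription factors none passed, and Irf9, the DNA-binding partner of Stat2, differed by 0.48 (SE 0.21, limma adjusted p = 0.161). None of the 8 tested sensors and adaptors and none of the 16 tested interferon gamma and antigen presentation genes passed.

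Of the 6 feedback regulators, 2 were higher. Socs3, which inhibits Jak kinases, had a log2 fold change of 0.80 (SE 0.23, limma adjusted p = 0.0422), and Ptpn2, a phosphatase of Jak and Stat proteins, one of 0.32 (SE 0.07, limma adjusted p = 0.0142). At Ptpn2 all 6 Car9-/- mice, at 7.33 to 7.53, lay above all 6 wild-type mice, at 6.96 to 7.29.

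Of 40 tested further interferon-stimulated genes, 6 were higher. Uba7, the enzyme that activates ISG15 for its transfer, had log2 signals of 9.76, 10.28 and 10.42 in Car9-/- mice, against 9.20, 9.39 and 9.67 in wild-type mice, and the groups did not overlap (log2 fold change 0.74, SE 0.13, limma adjusted p = 0.00755). Adar, which edits adenosines in double-stranded RNA, differed by 0.44 (SE 0.09), Shisa5 by 0.47 (SE 0.10) and the galectin Lgals9 by 0.61 (SE 0.14), with adjusted p = 0.0104, 0.015 and 0.0158 from limma. Adar, Shisa5 and Lgals9 each had 2 dimmer tested probes that did not pass. Samd9l and Eif2ak2 also passed. Car9-/- mice 5 and 6 were the 2 lowest of their genotype at Uba7 but remained above all wild-type mice, unlike at Isg15. Without wild-type mice 4 and 6, 3 of the 87 pathway genes were called higher, which is 3.45%, near the 2.2% of all tested probes.

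Markers of other cell types were set beside the members by mouse. In bulk tissue, fewer cells of a type and less RNA per cell cannot be told apart. The leukocyte level ran from -0.27 to 0.50 in Car9-/- mice and from -0.69 to 0.89 in wild-type mice, with the highest values in wild-type mouse 4 and Car9-/- mouse 4. Of its 4 genes 3 were tested and none passed, and Ptprc, which encodes CD45, was detected on no array. Macrophage and T cell levels were highest in wild-type mice 6 and 4, and none of their 7 and 4 tested genes passed, nor did any of 3 tested B and plasma cell genes and 3 tested neutrophil genes. Siglech, a marker of plasmacytoid dendritic cells, which make type I interferon, was detected in 6 Car9-/- mice and 5 wild-type mice, with a log2 fold change of -0.02 (limma adjusted p = 0.91). Of the 6 tested genes of that list 1 was higher, Ly6d, which was chosen for mention after its value was seen. Its signal was 14.41 and 14.18 in Car9-/- mice 4 and 3 and 13.63 in wild-type mouse 2, the mice with the highest squamous levels. It was also 13.63 in Car9-/- mouse 2, with a squamous level of 0.62, and 12.82 in Car9-/- mouse 5, with one of 1.615. Whether Ly6d came from plasmacytoid dendritic cells was not tested.

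The exocrine pancreas level was -1.32 to -0.60 in Car9-/- mice and -0.41 to 3.27 in wild-type mice, with no overlap, and 3 of its 17 tested genes were lower. The adipose level was -0.84 to -0.09 in Car9-/- mice and -0.76 to 1.99 in wild-type mice, and 1 of its 5 tested genes was lower. With the pancreas or the adipose level as a covariate none of the 30 member probes was called by limma. Few of the 20751 tested probes were called higher in these fits, 34 and 151. Among the members, 3 or 4 probes had an unadjusted p under 0.05 from limma, and the median log2 fold change was 0.29 and 0.35. Genotype and pancreas level cannot be told apart. The squamous level ran from -2.21 to 2.65 in Car9-/- mice and from -2.55 to 2.88 in wild-type mice. In Car9-/- mice 1 to 6 it was -2.21, 0.62, 2.65, 2.49, 1.615 and -2.15. The member levels of these mice were 0.37, 0.38, 0.40, 0.28, -0.36 and -0.10, and a link between the 2 levels was not tested. With the squamous level as a covariate the calls were those of Lgals3bp and Mx1.

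**Figure D5:**
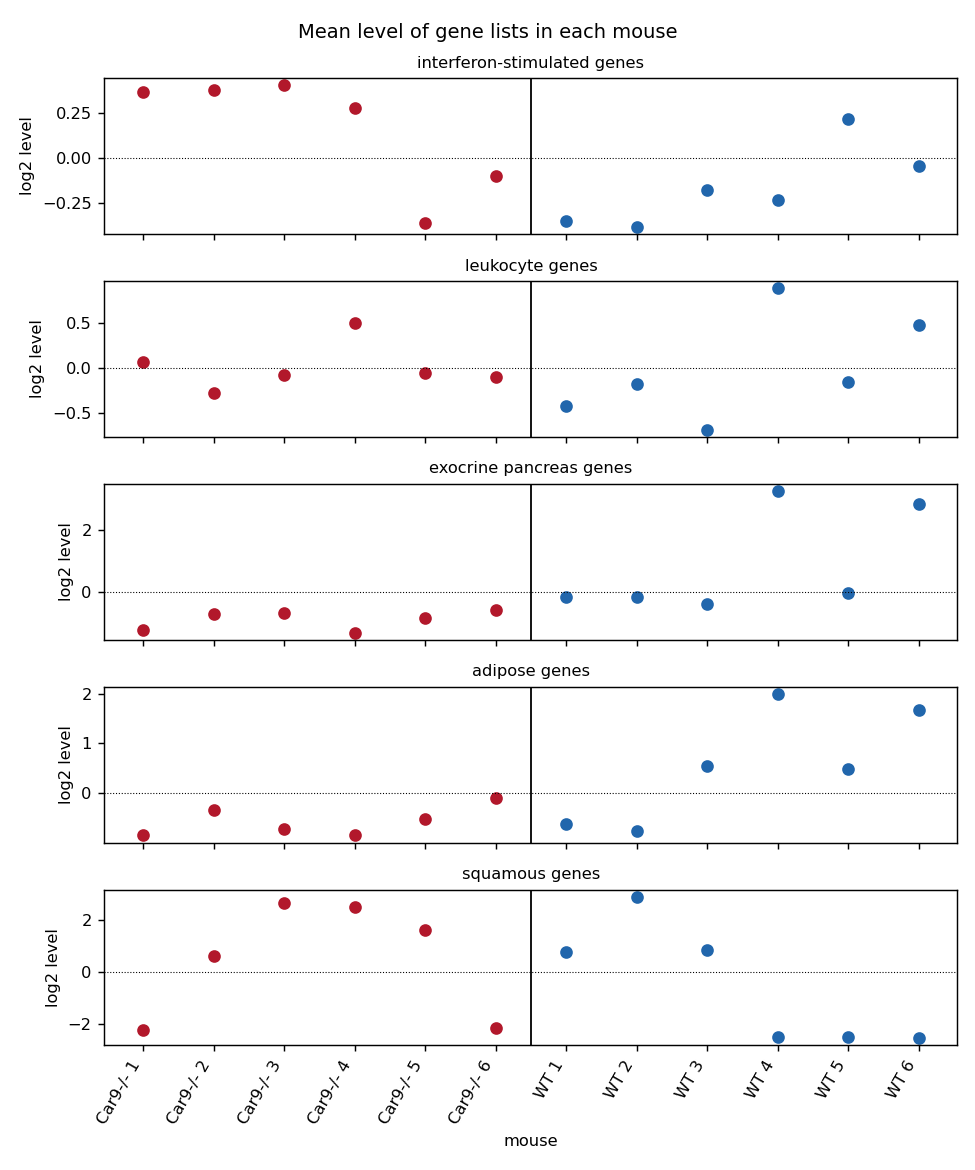
Mean level of 5 gene lists (panels, vertical axes in log2 units from each gene's mean over the 12 mice, with a scale of its own in each panel) in the 6 Car9-/- mice (red, left) and the 6 wild-type mice (WT, blue, right). The interferon-stimulated level is that of the 18 member genes detected on all arrays. It is high in Car9-/- mice 1 to 4 and wild-type mouse 5, while leukocyte, exocrine pancreas and adipose levels are highest in wild-type mouse 4.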

How the data were processed

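Genotype groups were taken from the labels of the mice. The authors deposited the BeadStudio signal intensity of every probe without background subtraction, the detection p-value of each probe and array, and log2 values that they had quantile-normalized in Chipster. Here intensities were log2-transformed and quantile-normalized, and they differed from the deposited log2 values by at most 0.0224. A probe entered the test when its detection p was below 0.01 on 3 or more arrays. The test was lmFit with eBayes (limma 3.58.1, R 4.3.3), with Benjamini-Hochberg adjustment and a threshold of 0.05. A gene with several probes was represented by the brightest tested probe. The number of arrays limits the precision. The members and lists were chosen with earlier results of these data known. All members with a probe are named, of the other lists up to 4 called genes with the largest limma statistic plus Irf9, Ifnar1, Ifnar2 and Ifngr1, of marker lists the first 3, and the 5 genes most correlated with the mean of the members. The fit was tested on simulated data. Alternatives in normalization, filter, covariates, array weights and mice left out were run. The median without Mx1 and the correlations without wild-type mice 4 and 6 were chosen after seeing the data. Figures were drawn with matplotlib 3.10.9. One listed gene is not reported here. The BeadChip of each array is not given in the sources used here.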

Additional observations from a re-analysis of the deposited data

Results flagged for a closer look

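In 5 of 60 groups of 6 values (30 probes in each genotype), 1 mouse lay apart from the others. Chance alone gives this in about 1 in 20 groups. The groups here share the same mice and many members varied together, so their number cannot be judged against that rate. In each of the 5 groups the mouse was wild-type mouse 5 or Car9-/- mouse 5. Wild-type mouse 5 stood above the other wild-type mice at Oasl2 (log2 signal 7.17, next 6.69), Usp18 (8.50, next 7.70) and the brightest Ddx58 probe (7.48, next 7.06). Car9-/- mouse 5 stood below the other Car9-/- mice at Ifit3 probe 6200113 (6.32, next 7.11) and at Ifi35 (7.54, next 8.48).

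Some member probes that were too dim to be tested were detected on Car9-/- arrays and on no wild-type array. These were Oas3 probe 6110497 on 1 array, Oasl2 probe 103140537 on 1, Zbp1 probe 4210138 on 1 and Mx2 probe 2030373 on 2. No test was made of them.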

How the results depend on the processing

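Counts of member probes called higher were 4 in the reported fit. They were 10 with median scaling, where all tested probes shifted by 0.1135 on the log2 scale and 3585 were higher and 426 lower, and 12 with array weights (1918 and 1886). They were 2 with all probes tested (880 higher and 829 lower in all) and with only probes above the median (1088 and 1066). They were also 2 with the squamous level as a covariate (1030 and 1043). They were 1 with the replicate block (251 higher and 210 lower in all), and 0 with the exocrine pancreas level (34 and 16), the adipose level (151 and 139), wild-type mice 4 and 6 left out (457 and 506), or the study's SD filter (7 and 5), which kept 2 member probes. Leaving out 1 mouse gave 2 to 17 member probes, with 653 to 1771 higher and 551 to 1589 lower in all. Other pathway genes called higher, 9 in the reported fit, were 26 with median scaling, 3 without wild-type mice 4 and 6, 0 with the replicate block, the SD filter, the pancreas or the adipose level, and 6 to 15 without 1 mouse. Pathway genes called lower, 0 in the reported fit, were 1 with sex and age as covariates, 2 with array weights and 0 to 2 without 1 mouse. The cause of these changes was not tested. Whether the replicate numbers pair the mice is not known. Mice with the same number had the same sex in both genotypes. Of the 6 same-numbered pairs, 1 had a correlation of deviations above 0.1, and so few values cannot decide it. Over all alternatives, 716 log2 fold changes of single member probes kept their direction and their side of the threshold. Most of the 716 were of probes not called in the reported fit. Another 41 no longer passed, all at the 4 called probes, the only ones that could stop passing. A further 31 newly passed and 23 changed sign.

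Log2 fold changes that changed sign were mostly near 0. With median scaling they became 0.19 at Ifi35, 0.017 at Ifit2, 0.18 and 0.027 at the 2 Ifitm3 probes and 0.11 at Isg20. Ifi35 was 0.11 with array weights and 0.053 with the squamous level, and -0.083 to 0.18 without 1 mouse. With the pancreas level they were -0.0155 at Ddx58 probe 100450176, 0.36 at Ifi27l2a, 0.030 at Ifi35 and 0.073 at Ifitm3. With the adipose level they were -0.026 at that Ddx58 probe, -0.093 at Gbp2, 0.55 at Ifi27l2a and 0.11 at Ifi35. Without wild-type mice 4 and 6 they were 0.081 at Ifi27l2a, 0.023 at Ifi35 and 0.012 at Ifitm3. The median log2 fold change stayed positive in every fit that gave one, between 0.20 and 0.49, and the median correlation between members lay between 0.23 and 0.38. A fit with the BeadChip as a block was not run, since the headers name no chip. Dim probes limit the result, as 16 of 46 could not be tested.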
